A study of Mus musculus with 12 samples.

Results

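Neutrophils carry their antimicrobial proteins and proteases in granules of several classes, and 10 genes for such proteins were followed in the mouse cecum after cauterization. They were taken by gene symbol as 4 primary (Mpo, Elane, Prtn3, Ctsg), 5 secondary (Ltf, Camp, Ngp, Lcn2, Mmp8) and 1 tertiary (Mmp9) granule gene, out of 37074 genes on the arrays, and were covered by 13 of 56605 probes. Total RNA of the whole cecum was hybridised to 12 Agilent arrays of 1 colour, 3 in each of 4 groups. The groups were a sham control, for which the methods give a sampling time of 0 h, and cecum sampled 3, 12 or 72 h after cauterization with bipolar forceps. The methods name C57BL/6 mice as the wild-type strain and no age, and the labels call all mice male. Because the sham cecum was taken at 0 h, time since laparotomy and cauterization cannot be told apart. No label ties an array to a single mouse, so the p-values measure the spread between these arrays.

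The sex label was checked first. Xist, which is transcribed from the inactive X chromosome, was well above background on 12 of 12 arrays. Both probes of Ddx3y and of Eif2s3y were so on 0 arrays, 1 of the 3 probes of Uty was on 1 array, and 1 of the 6 probes of Kdm5d was on 12. These Y-linked genes therefore went against the label on most probes. All 8 neutrophil markers read below were well above background on all 9 arrays after cauterization. In sham, Cxcr2 and Stfa2l1 were so on 0 arrays, S100a8 on 2 and the other markers on all 3.

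The granule classes are made one after the other while a neutrophil matures in the bone marrow. Primary (azurophil) proteins are transcribed at the promyelocyte stage, secondary (specific) proteins at the myelocyte and metamyelocyte stages, and tertiary (gelatinase) proteins later still. Neutrophils that reach a tissue have mostly stopped transcribing the primary proteins, while some later genes, such as Lcn2, can be induced again in inflammation. Granule genes are not all restricted to neutrophils, since epithelium can make Lcn2, macrophages Mmp9, and mast cells Ctsg.

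Genes of the classes were called at different times. Of the 5 secondary genes 3 rose by 3 h, where 3.26% of all genes did, and all 5 were higher than in sham at 12 h, where 4.1% of all genes were. The group mean was highest at 12 h for each of them except Mmp8. None of the 4 primary genes was called at 3 h or 12 h by limma, but with 4 genes a count of 0 lies near the shares over all genes. At 72 h 1 of them, Mpo, was 7.92-fold higher than in sham, where 4.55% of all genes were higher. Between 12 h and 72 h, 3 of the 4 primary genes rose, against 4.33% of all genes, and 3 of the 5 secondary genes fell, against 3.19%, while the tertiary gene Mmp9 differed by 0.28 ± 0.24 (log2 difference ± SE, limma adjusted p = 0.445). The 72 h arrays shared their slide with only 1 array of another group, and with the slide as a block 0 primary and 0 secondary genes were called by limma between 12 h and 72 h (5 of the 10 genes at an unadjusted p under 0.05), nor was Mpo against sham (adjusted p = 0.0972). Levels are log2 intensities from which the array's 75th percentile was subtracted, so that 0 is the level of a probe at that percentile. A call needed more than a 2-fold difference and an adjusted p under 0.05 by limma, with 3 arrays in each group. All 10 genes were well above background on all arrays of at least 1 group, as were 23848 of the 37074 genes. In this bulk tissue, fewer cells of a type and less RNA per cell cannot be told apart.

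**Figure D1:**
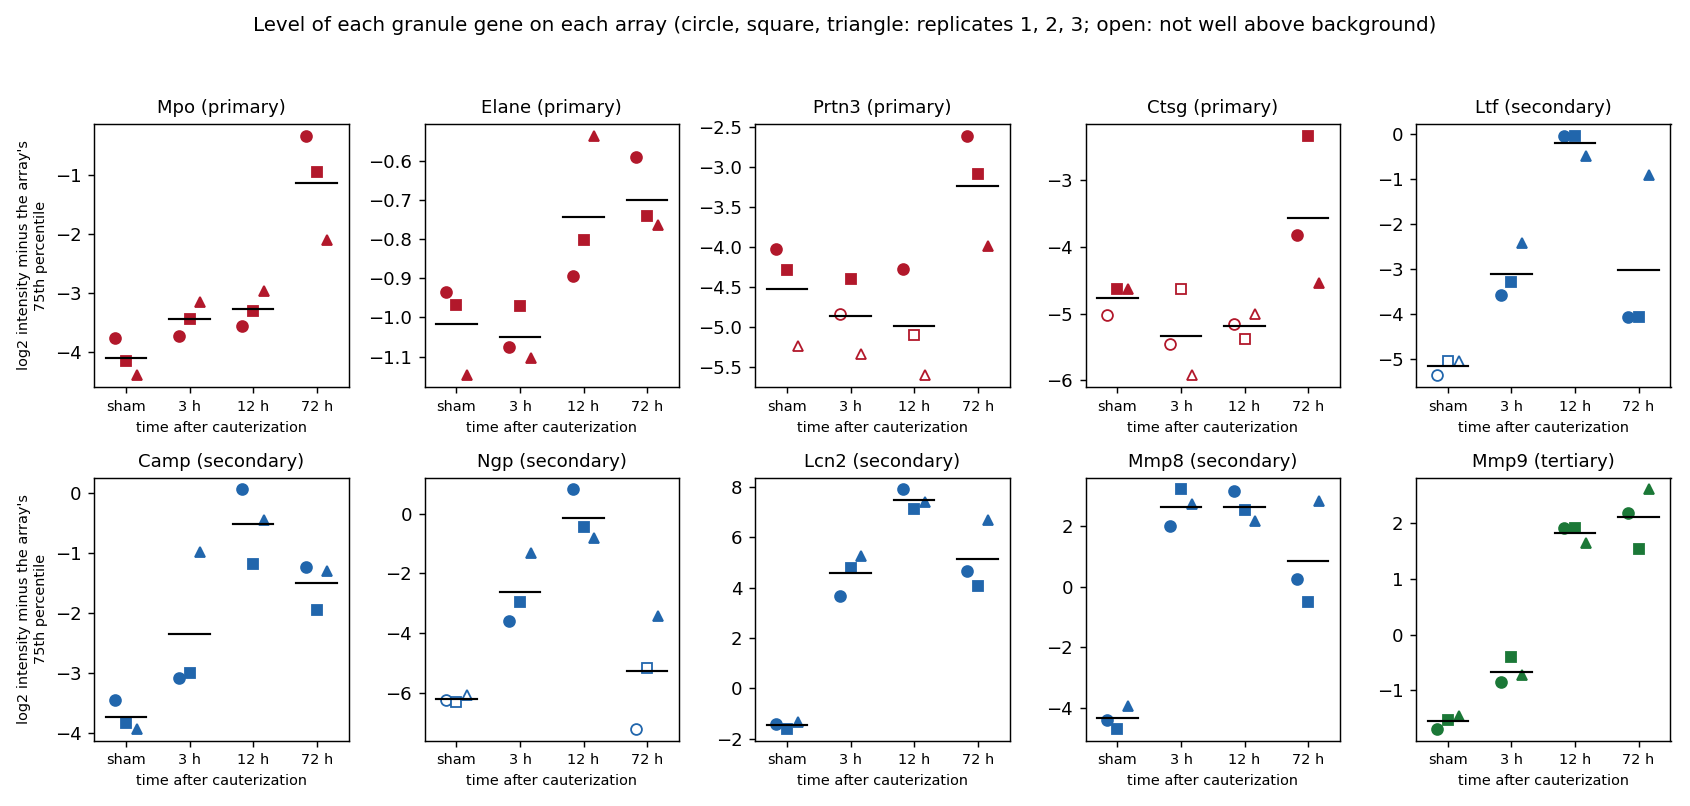
Level of each granule gene on each array, in log2 intensity relative to that array's 75th percentile (each panel has its own vertical axis), by time after cauterization. Each marker is 1 array, open markers were not well above background and lines are group means. The 72 h arrays stand above all others for Mpo, and the 12 h arrays stand above all others for Ltf, Ngp and Lcn2.

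Sequence upstream of the transcription start is shown for the 4 primary genes, whose promoters share a short motif, and for Ltf and Ngp, the secondary genes with the largest falls between 12 h and 72 h. RefSeq promoter windows were found for 9 of the 10 genes on GRCm38.p6, and the 250 bases before the start are given on the strand of the gene. Capitals mark AGGAAGT, the core bound by ETS factors such as PU.1, and TTGCNNAA, a form of the C/EBP motif, both searched on either strand. Mpo lies on the + strand (chr11:87793534-87793783), Elane (chr10:79886062-79886311) and Prtn3 (chr10:79879417-79879666) are neighbours on the + strand, and Ctsg lies on the - strand (chr14:56102575-56102824).
Mpo: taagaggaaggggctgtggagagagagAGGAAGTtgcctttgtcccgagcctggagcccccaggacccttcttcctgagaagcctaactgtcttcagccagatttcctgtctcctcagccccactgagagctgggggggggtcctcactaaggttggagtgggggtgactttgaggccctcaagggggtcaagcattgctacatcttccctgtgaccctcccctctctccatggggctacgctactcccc
Elane: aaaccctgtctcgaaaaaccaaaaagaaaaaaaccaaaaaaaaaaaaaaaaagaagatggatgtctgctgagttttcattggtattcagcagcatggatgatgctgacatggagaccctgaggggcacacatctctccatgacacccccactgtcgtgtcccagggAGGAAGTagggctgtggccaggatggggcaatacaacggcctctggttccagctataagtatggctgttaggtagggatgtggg
Prtn3: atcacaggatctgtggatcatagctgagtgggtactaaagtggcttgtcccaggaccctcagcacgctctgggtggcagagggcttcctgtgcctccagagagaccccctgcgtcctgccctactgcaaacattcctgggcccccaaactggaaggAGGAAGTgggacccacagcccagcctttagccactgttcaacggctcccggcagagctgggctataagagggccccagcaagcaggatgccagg
Ctsg: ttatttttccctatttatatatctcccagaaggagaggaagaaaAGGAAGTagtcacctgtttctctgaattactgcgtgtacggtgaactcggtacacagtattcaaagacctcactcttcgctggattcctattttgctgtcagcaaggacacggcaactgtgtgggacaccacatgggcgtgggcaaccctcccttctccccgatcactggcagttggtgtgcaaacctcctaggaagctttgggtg
Ltf (chr9:111019042-111019291) and Ngp (chr9:110419558-110419807) both lie on the + strand.
Ltf: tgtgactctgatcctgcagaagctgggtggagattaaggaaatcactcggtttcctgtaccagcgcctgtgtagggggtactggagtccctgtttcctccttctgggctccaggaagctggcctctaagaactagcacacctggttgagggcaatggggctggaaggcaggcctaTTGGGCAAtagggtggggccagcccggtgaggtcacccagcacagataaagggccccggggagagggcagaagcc
Ngp: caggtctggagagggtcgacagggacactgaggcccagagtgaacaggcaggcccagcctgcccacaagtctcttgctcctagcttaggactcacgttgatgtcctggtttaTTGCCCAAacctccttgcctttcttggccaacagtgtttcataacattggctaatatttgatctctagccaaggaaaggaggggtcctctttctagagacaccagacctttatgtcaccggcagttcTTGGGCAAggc
AGGAAGT stood once in each of the 4 primary promoters, on the strand of the gene in all of them. It began 223 bases before the start in Mpo, 84 in Elane, 94 in Prtn3 and 206 in Ctsg. Among the 5 secondary promoters only Mmp8 held it, on the opposite strand, and 7.7% of all 32851 promoter windows of this length did. TTGCNNAA stood in 0 of the 4 primary promoters and in 4 of the 5 secondary promoters (Ltf, Ngp, Lcn2 and Mmp8, not Camp), against 9.6% of all windows. The shorter GAGGAA, which overlaps AGGAAGT where a G precedes it, was found in 4 of 4 primary and 3 of 5 secondary promoters and in 23.3% of all windows. The letters AGGAAGT were chosen after these sequences had been read, so the counts describe the windows and were not tested.

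Among the primary genes, Mpo moved most. It encodes myeloperoxidase, which makes hypochlorous acid, and its probe lies at chr11:87617102-87617877 (mm9), a span longer than the probe itself. Its level was -3.78, -4.16 and -4.40 in sham, -3.73, -3.44 and -3.16 at 3 h, and -3.57, -3.31 and -2.96 at 12 h. At 72 h it was -0.33, -0.95 and -2.10, and these arrays did not overlap with any other group. The difference between 72 h and sham was 2.99 ± 0.39 (log2 ± SE, 7.92-fold, limma adjusted p = 0.000732), against 0.67 at 3 h (adjusted p = 0.243, limma) and 0.83 at 12 h (0.169). Mpo at 72 h was also above 12 h by 2.16 (adjusted p = 0.00462, limma) and above 3 h by 2.32 (adjusted p = 0.00169). These 3 calls held without each of the 12 arrays in turn, but with the slide as a block none of them did, with adjusted p of 0.0972 against sham, 0.107 against 12 h and 0.132 against 3 h (limma). The other Mpo probe was well above background on 0 of 12 arrays and gave 0.31 at 72 h (adjusted p = 0.683, limma).

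Prtn3, the serine protease proteinase 3 (probe at chr10:79343869-79344685, mm9), was close to background before 72 h. It was well above background on 2 arrays in sham, on 1 at 3 h, on 1 at 12 h and on all 3 at 72 h. Its level was -4.03, -4.29 and -5.24 in sham, -4.84, -4.40 and -5.34 at 3 h, -4.28, -5.10 and -5.60 at 12 h, then -2.62, -3.10 and -4.00 at 72 h. Only the 72 h arrays stood above all others, while sham, 3 h and 12 h overlapped. Prtn3 at 72 h exceeded 12 h by 1.76 (limma adjusted p = 0.026) and 3 h by 1.63 (adjusted p = 0.0239), although each of those groups was measured above background on only 1 of 3 arrays. With arrays below background raised to the dimmest signal that counted as well above it, the differences were 1.45 (2.74-fold, adjusted p = 0.0094, limma) and 1.41 (2.66-fold, 0.0069). Against sham the 72 h difference was 1.29 ± 0.46 (adjusted p = 0.0785, limma), which missed the threshold.

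Ctsg encodes the serine protease cathepsin G (probe at chr14:56718795-56718854, mm9). Its level was -5.02, -4.63 and -4.62 in sham, -5.46, -4.63 and -5.92 at 3 h, -5.15, -5.39 and -5.00 at 12 h, then -3.82, -2.33 and -4.54 at 72 h. It was well above background on 2 sham arrays, on 0 arrays at 3 h and 12 h, and on 3 at 72 h, when all arrays lay above those of the other groups. Ctsg at 72 h was at least 2.65-fold higher than at 12 h (1.62, limma adjusted p = 0.0473) and at least 2.23-fold higher than at 3 h (1.78, adjusted p = 0.0215). Without 72 h replicate 2 these differences were 1.0 (adjusted p = 0.108, limma) and 1.16 (0.0405). For this bound, a probe not measured on an array was set to the dimmest signal that still counted as well above background there, or to its own signal if brighter. The difference between 72 h and sham was 1.19 ± 0.49 (adjusted p = 0.121, limma).

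Elane, neutrophil elastase (probe at chr10:79350902-79350961, mm9), was measured on all 12 arrays and had no call in any of the 6 comparisons. Its level was -0.94, -0.97 and -1.15 in sham, -1.08, -0.97 and -1.10 at 3 h, -0.89, -0.80 and -0.54 at 12 h, then -0.59, -0.74 and -0.76 at 72 h. Its mean in sham was -1.02, against -4.11 for Mpo, -4.52 for Prtn3 and -4.76 for Ctsg. Whether all of this signal came from elastase transcripts was not tested. The 12 h and 72 h arrays lay above the sham arrays, by 0.27 (limma adjusted p = 0.148) and 0.32 (0.0941). As a class, the primary genes had medians of -0.19, -0.07 and 1.24 for the log2 difference from sham at 3, 12 and 72 h, beside 0.08, -0.01 and -0.14 over all genes. Called higher were 0 of 4 at 3 h, 0 of 4 at 12 h and 1 of 4 at 72 h by limma. Over all genes these shares were 3.26%, 4.1% and 4.55%, so that with 4 genes a count of 0 lies near them. At an unadjusted p under 0.05 the counts were 0, 1 (Elane) and 4. By the methods' t-test, a paired test on the same values, 0, 0 and 3 had an unadjusted p under 0.05 and none passed after Benjamini-Hochberg adjustment. The methods name that test for comparisons of 2 groups in general. With 3 arrays in a group it has little power after adjustment over all probes, so the lack of calls decides nothing.

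The secondary genes rose earlier. Ltf encodes the iron-binding lactoferrin (probe at chr9:110942873-110942932, mm9) and was well above background on 0 sham arrays and on all 9 others. Its level was -5.37, -5.05 and -5.06 in sham, -3.59, -3.30 and -2.44 at 3 h, -0.04, -0.05 and -0.49 at 12 h, then -4.08, -4.07 and -0.91 at 72 h. The 12 h arrays stood above all others, and at 72 h replicate 3 lay far above the other 2. At 12 h Ltf was at least 28.2-fold higher than in sham (4.96 ± 0.71, limma adjusted p = 0.000967). At 3 h and 72 h it was at least 3.73-fold and 3.98-fold higher, with adjusted p of 0.0738 and 0.0603 (limma), so neither was called. Ltf rose by 2.92 between 3 h and 12 h (limma adjusted p = 0.0327) and fell by 2.83 between 12 h and 72 h (0.0219).

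Ngp, neutrophilic granule protein, is related to the cystatins and cathelicidins (probe at chr9:110324266-110324814, mm9). Its level was -6.26, -6.31 and -6.07 in sham, -3.59, -2.97 and -1.31 at 3 h, 0.81, -0.44 and -0.83 at 12 h, then -7.21, -5.19 and -3.43 at 72 h. It was well above background on 0 sham arrays, on all 6 arrays at 3 h and 12 h, and at 72 h only on replicate 3. Ngp was at least 5.26-fold higher than in sham at 3 h (3.59, limma adjusted p = 0.0179) and at least 29.2-fold higher at 12 h (6.06, adjusted p = 0.000995). At 72 h it differed from sham by 0.94 ± 0.87 (adjusted p = 0.5, limma), and the groups overlapped. The difference between 72 h and 12 h was -5.12 (limma adjusted p = 0.00368), and with the 72 h arrays below background raised to the dimmest signal above it, -4.41 (21.2-fold lower, adjusted p = 0.000534). The call at 3 h was lost without 3 of the 12 arrays, with an adjusted p up to 0.0627 (limma), and the value was 2.93 without 3 h replicate 3.

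Camp, the cathelicidin precursor whose peptide lyses bacteria (probe at chr9:109749911-109749970, mm9), was measured on all 12 arrays. Its level was -3.46, -3.85 and -3.94 in sham, -3.08, -3.00 and -0.99 at 3 h, 0.06, -1.18 and -0.44 at 12 h, then -1.24, -1.95 and -1.29 at 72 h. Replicate 3 at 3 h reached the range of the later groups, and the other 3 h arrays lay just above sham. The difference from sham was 1.39 (limma adjusted p = 0.095) at 3 h, 3.23 (0.00189) at 12 h and 2.26 (0.0135) at 72 h. Between 12 h and 72 h Camp differed by -0.97 ± 0.52 (adjusted p = 0.239, limma).

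Lcn2 encodes lipocalin 2, which withholds iron from bacteria by binding their siderophores (probe at chr2:32240199-32240258, mm9). Its level was -1.42, -1.60 and -1.32 in sham, 3.66, 4.78 and 5.26 at 3 h, 7.91, 7.13 and 7.41 at 12 h, then 4.65, 4.08 and 6.69 at 72 h. No array after cauterization overlapped with sham, and 3 h and 72 h overlapped with each other. Lcn2 was 64.8-fold higher than in sham at 3 h (6.02 ± 0.60, limma adjusted p = 0.000204), 488.2-fold at 12 h (8.93, adjusted p = 1.6e-05) and 96.3-fold at 72 h (6.59, adjusted p = 0.000106). Without 72 h replicate 3 the last value was 56.4-fold (5.82, adjusted p = 8.28e-05, limma). At 12 h this was the 16th largest rise of the 37074 genes. The other Lcn2 probe gave 6.76, 9.92 and 7.48 with the same calls. Lcn2 rose by 2.91 between 3 h and 12 h (limma adjusted p = 0.0178) and fell by 2.34 between 12 h and 72 h (0.0245). Epithelial markers were called in 0 of 6 at each time against sham by limma, with 4, 2 and 3 at an unadjusted p under 0.05. Of all genes 3.26%, 4.1% and 4.55% were called higher and 4.11%, 4.96% and 4.3% lower at these times. The summed level of the epithelial markers was 982 to 1068 in sham and 1233 to 1354 at 3 h, in multiples of the 75th percentile. It was 1038 to 1250 at 12 h and 625 to 822 at 72 h. The part of epithelium in the Lcn2 result was not tested.

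Mmp8, neutrophil collagenase (probe at chr9:7567968-7568026, mm9), had risen fully by 3 h. Its level was -4.40, -4.69 and -3.93 in sham, 2.0, 3.22 and 2.73 at 3 h, 3.18, 2.55 and 2.17 at 12 h, then 0.25, -0.51 and 2.86 at 72 h. The 3 h and 12 h arrays lay in the same range, and at 72 h replicate 3 lay there too while the other 2 were lower. The difference from sham was 6.99 ± 0.72 (127.2-fold, limma adjusted p = 0.000234) at 3 h, 6.97 (0.00016) at 12 h and 5.21 (0.00106) at 72 h. Leaving out arrays gave 4.21 without 72 h replicate 3 and 5.89 without 72 h replicate 2. Mmp8 at 12 h and 3 h differed by -0.02 ± 0.72 (adjusted p = 0.992, limma), and 72 h against 12 h gave -1.77 (0.123).

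Mmp9, gelatinase B, is the protease that names the gelatinase granules (probe at chr2:164779091-164780300, mm9). Its level was -1.69, -1.52 and -1.45 in sham, -0.85, -0.40 and -0.73 at 3 h, 1.92, 1.92 and 1.65 at 12 h, then 2.18, 1.54 and 2.61 at 72 h. The 3 h arrays stood between sham and the later groups without overlap, and 12 h and 72 h overlapped. The rise was 0.89 ± 0.24 at 3 h (limma adjusted p = 0.027, under 2-fold), 3.38 at 12 h (10.4-fold, adjusted p = 1.88e-05) and 3.67 at 72 h (12.7-fold, adjusted p = 1.73e-05). The other Mmp9 probe gave 1.09 at 3 h (adjusted p = 0.0187, limma), which was called, then 3.37 and 4.02. Mmp9 at 72 h was 2.77 above its level at 3 h (limma adjusted p = 7.46e-05), and this call held without each array in turn.

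**Figure D2:**
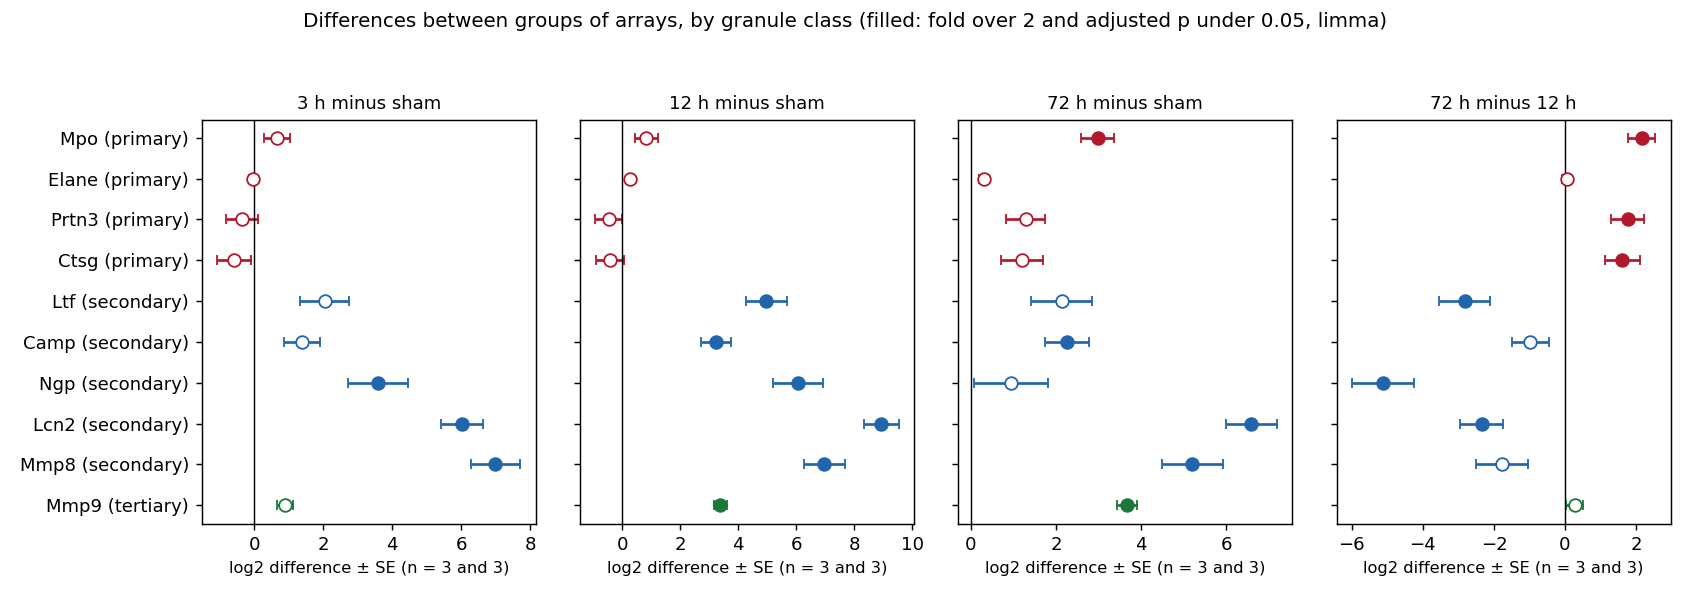
Log2 difference with its SE for each granule gene at 3, 12 and 72 h against sham and at 72 h against 12 h (horizontal axes), with genes ordered by class and 3 arrays in each group. Filled markers were called by limma, at more than 2-fold and an adjusted p under 0.05. In the last panel Mpo, Prtn3 and Ctsg lie to the right of 0, and Ltf, Ngp and Lcn2 lie to the left.

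Counted over the 10 genes, 3 were called higher at 3 h (Ngp, Lcn2, Mmp8), where 3.26% of all genes were. At 12 h 6 were called higher (Ltf, Camp, Ngp, Lcn2, Mmp8, Mmp9), against 4.1% of all genes. At 72 h 5 were called higher (Mpo, Camp, Lcn2, Mmp8, Mmp9), against 4.55%. None of the 10 was called lower than sham by limma, against 4.11%, 4.96% and 4.3% of all genes, and 0 of them fell at an unadjusted p under 0.05. The 3 comparisons share the sham arrays. The secondary class had medians of 3.59, 6.06 and 2.26 at the 3 times, beside 0.08, -0.01 and -0.14 over all genes.

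Between the times after cauterization, 12 h against 3 h called 3 genes higher (Ltf, Lcn2, Mmp9), against 1.89% of all genes, and none lower by limma, against 1.56%. The Ltf and Lcn2 calls there were lost without 6 and 3 of the 12 arrays, while Mmp9 was called without each. At 72 h against 12 h, 3 genes were called higher (Mpo, Prtn3, Ctsg), against 4.33%, and 3 lower (Ltf, Ngp, Lcn2), against 3.19%. The class medians were 1.69 for the primary and -2.34 for the secondary genes, beside -0.14 over all genes. At 72 h against 3 h, 4 were called higher (Mpo, Prtn3, Ctsg, Mmp9), against 6.19%, and Ngp lower, against 5.51%, although its 72 h arrays overlapped with those at 3 h. That Ngp call was lost without 8 of the 12 arrays, with values of -3.57 to -1.68 and adjusted p up to 0.125 (limma), and in 14 of 25 alternatives. The Prtn3 call was lost there without 3 arrays (3 h replicate 3, 72 h replicates 1 and 2, adjusted p up to 0.0904) and that of Ctsg without 3 h replicate 3 (0.0728).

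The slides bear on the 72 h comparisons. The sham and 3 h arrays and 12 h replicates 1 and 2 lay on 1 slide, and 12 h replicate 3 and the 72 h arrays on the other. With the slide as a block, which rests on the 12 h arrays alone to join the slides, the 72 h minus 12 h differences were 1.84 for Mpo (limma adjusted p = 0.107), 2.37 for Prtn3 (0.0733), 1.44 for Ctsg (0.281), -2.53 for Ltf (0.234), -4.45 for Ngp (0.091) and -2.27 for Lcn2 (0.214). The values within the second slide, against its 1 array at 12 h, were the same, and no gene was called in either fit. At an unadjusted p under 0.05, limma gave 5 of the 10 genes with the block and 3 within the slide. Against sham at 72 h the block left Lcn2 (6.70, adjusted p = 0.0199, limma) and Mmp9 (3.93, adjusted p = 0.00351) called, and Mpo was at 2.51 (0.0972), Camp at 2.13 (0.277) and Mmp8 at 5.90 (0.0525). Between 12 h and 3 h the block left Mmp9 called, and between 72 h and 3 h likewise Mmp9.

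Left-out arrays moved the same comparison. Mpo and Ngp were called at 72 h against 12 h without each array in turn, at 1.76 to 2.64 and -6.05 to -4.15. The call was lost without 4 of the 12 arrays for Prtn3 (12 h replicates 2 and 3, 72 h replicates 1 and 2), with adjusted p up to 0.0952 (limma). It was lost without 9 for Ctsg (adjusted p up to 0.127), 4 for Ltf (12 h and 72 h replicates 1 and 2, up to 0.0814) and 5 for Lcn2 (the 12 h arrays and 72 h replicates 1 and 2, up to 0.0865). Without 72 h replicate 3 the falls were wider, at -3.88 for Ltf, -6.05 for Ngp and -3.12 for Lcn2, and without 72 h replicate 1 Ngp was at -4.15. With normexp background correction, which compresses dim probes, Mpo was 0.96 higher at 72 h than at 12 h (limma adjusted p = 0.00593) but under 2-fold, and Prtn3 and Ctsg were at 0.25 (0.0552) and 0.22 (0.184).

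At 72 h replicate 3 differed from the other 2 arrays in opposite directions for 3 of the 4 primary and 4 of the 5 secondary genes. On replicate 3 Mpo, Prtn3 and Ctsg were lower than on replicates 1 and 2, with deviations of -0.97, -0.76 and -0.97 from the group mean. On the same array Ltf, Ngp, Lcn2 and Mmp8 were higher than the group mean, by 2.11, 1.85, 1.55 and 1.99. The other gene of each class did not follow this split, since Camp (-1.29) lay between the other 2 arrays (-1.24 and -1.95) and Elane (-0.76) lay next to replicate 2 (-0.74). The summed level of the 8 neutrophil markers was 686 on that array, against 451 and 359 on the others, and that of 4 fibroblast markers was 204 against 387 and 275. Without it, 8 of the 10 genes were called at 72 h against sham, adding Prtn3 (1.67, limma adjusted p = 0.0391), Ctsg (1.68, 0.0344) and Ltf (1.08, 0.0406). The part of that array's cell make-up in these values was not tested.

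**Figure D3:**
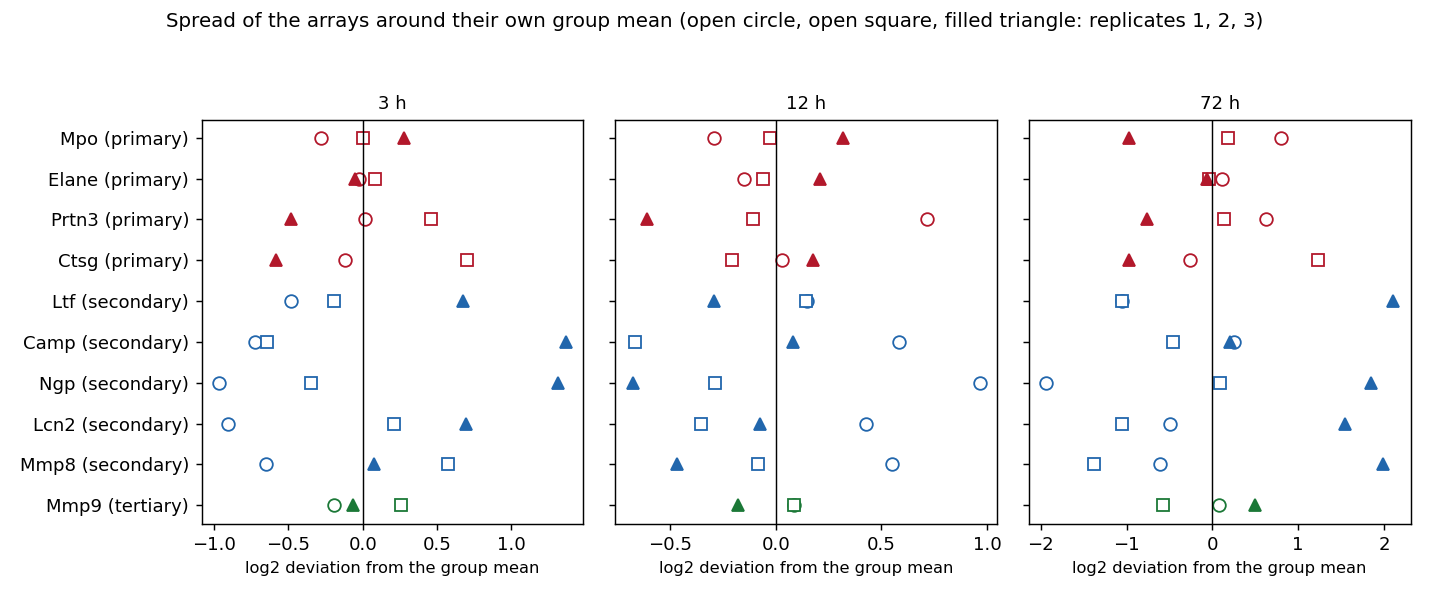
Deviation of each array from the mean of its own group, on the log2 scale, for the 10 granule genes at 3, 12 and 72 h (each panel has its own horizontal axis). At 72 h replicate 3 (filled triangle) lies below the mean for Mpo, Prtn3 and Ctsg and above it for Ltf, Ngp, Lcn2 and Mmp8.

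Other granule genes from lists drawn up by class were read in the same fit. Of all genes, 3.26%, 4.1% and 4.55% were called higher there at 3, 12 and 72 h. Of 6 further primary granule genes, 1, 2 and 3 were called higher at 3, 12 and 72 h. At 72 h these were Srgn (3.05), the proteoglycan serglycin that packs granule proteases, Ctsc (1.43), the dipeptidase that activates the serine proteases, and Gusb (1.0), the lysosomal beta-glucuronidase. Cells other than neutrophils make all of these. Prss57 and Ms4a3, which are more restricted to myeloid precursors, were well above background on 0 of 12 arrays. Of 8 further secondary genes, 3, 6 and 5 were called higher. At 12 h these included Hp, haptoglobin (6.46, limma adjusted p = 1.41e-05), Chil3, a chitinase-like lectin (4.98, adjusted p = 0.0011), and Cd177, a neutrophil surface protein (2.75). Olfm4, olfactomedin 4, was at least 5.47-fold higher at 12 h (adjusted p = 0.00115, limma). Between 12 h and 72 h, 2 of the 8 were called lower, Chil3 (-2.62, adjusted p = 0.0334, limma) and Olfm4 (-3.74, adjusted p = 0.00589). None was called higher by limma, and over all genes 3.19% were called lower and 4.33% higher. Hp (1.16), Lyz2 (0.86), Cybb (0.80) and Cd177 (0.34) went up between these times without a call.

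Of 10 genes of gelatinase granules and secretory vesicles, 8, 9 and 9 were called higher at 3, 12 and 72 h, and none lower. Over all genes 3.26%, 4.1% and 4.55% were called higher and 4.11%, 4.96% and 4.3% lower. At 12 h the largest differences were those of Fpr1 (7.11, limma adjusted p = 2.42e-05) and Fpr2 (6.16), which are receptors for formyl peptides, Adam8 (4.78), a membrane protease, and Ptafr (4.22), the receptor of platelet-activating factor. Itgam, a chain of the integrin Mac-1, was not called at any of the 3 times. Of 8 transcription factors of granulopoiesis, 4, 5 and 5 were called higher. At 12 h these included Cebpb (3.25, adjusted p = 1.84e-05), Spi1, which encodes PU.1 (2.95, adjusted p = 3e-05), Cebpd (2.59) and Cebpe (1.60, adjusted p = 0.00349, limma). Cebpe, the factor needed for secondary granules, was called lower at 3 h (-1.27, adjusted p = 0.0137, limma). Gfi1, Myb and Cebpa were not called at any of the 3 times, while Runx1 was called higher at each of them (1.59, 1.18 and 1.79).

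Inhibitors of the granule proteases were called higher in 4 of 9 at each time, against 3.26%, 4.1% and 4.55% of all genes. At 72 h these were Timp1 (6.27, limma adjusted p = 8.45e-06), an inhibitor of matrix metalloproteases, Serpina3n (4.0), an inhibitor of serine proteases, Slpi (3.68), which blocks elastase, and A2m, at least 2.54-fold higher. Serpina1a and Serpina1b, forms of alpha-1-antitrypsin, were called lower at 72 h (-1.55 and -1.27, adjusted p = 0.0116 and 0.0155, limma). These are near-identical paralogues whose signals may be shared.

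**Figure D4:**
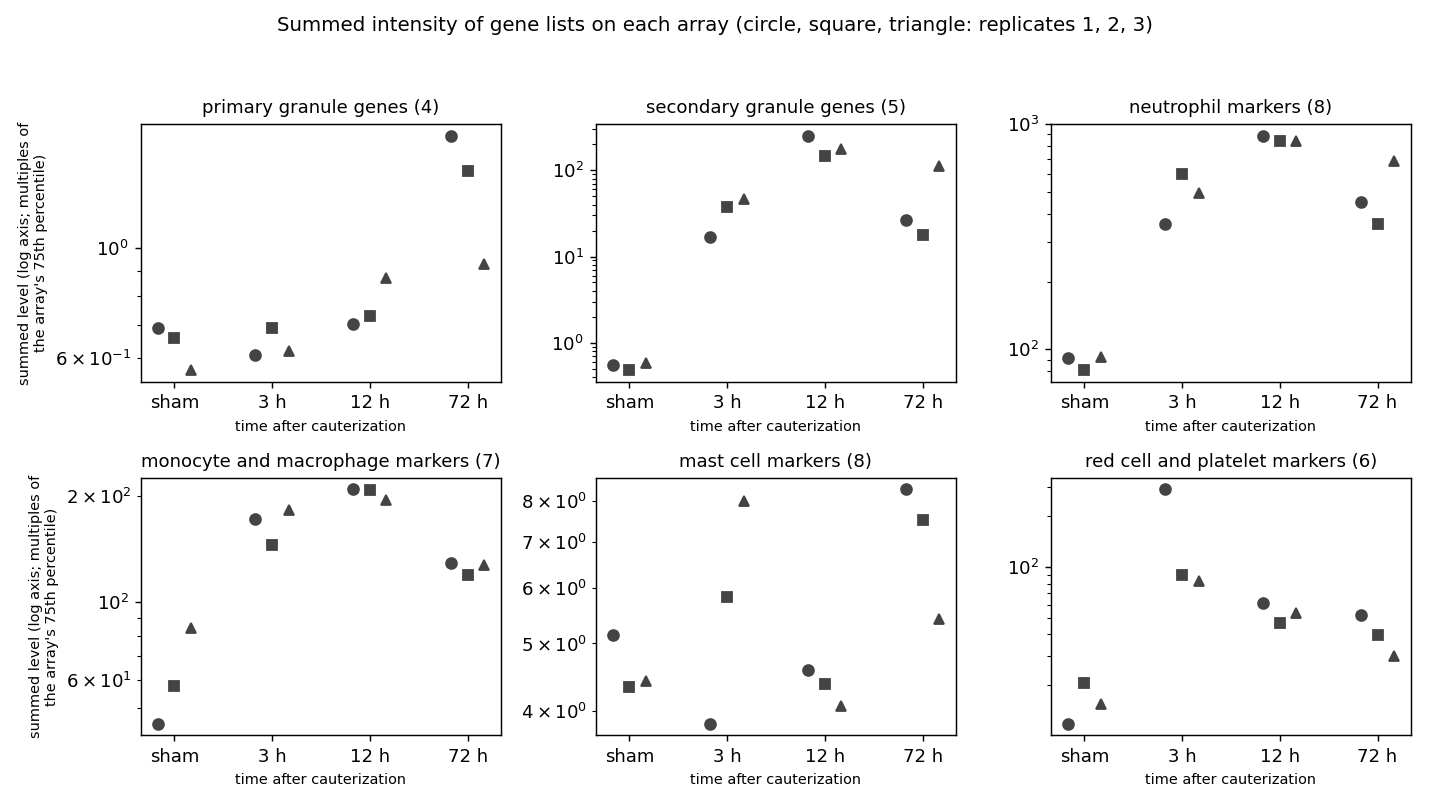
Summed intensity of the primary and secondary granule genes and of 4 marker lists on each array, in multiples of the 75th percentile of the array (log axis), by time after cauterization. By these sums, secondary genes and neutrophil markers are highest at 12 h, primary genes at 72 h, and red cell and platelet markers on a 3 h array. The secondary sum is mostly Lcn2, whose mean level at 12 h was 7.48, against 2.64 for Mmp8. In sham the primary sum is mostly Elane (-1.02, against -4.11 for Mpo). At 72 h Elane (-0.70) and Mpo (-1.13) are its brightest members.

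Markers of other cells were read in the same fit, where 3.26%, 4.1% and 4.55% of all genes were called higher at 3, 12 and 72 h. Neutrophil markers were called higher in 7, 7 and 6 of 8 at 3, 12 and 72 h. At 12 h S100a8 (12.33) and S100a9 (10.85), the subunits of calprotectin, led, Stfa2l1 was at least 498.5-fold and the chemokine receptor Cxcr2 at least 221.2-fold higher. Their summed level was 80.9 to 92.1 in sham, 360 to 600 at 3 h, 841 to 889 at 12 h and 359 to 686 at 72 h. The sham sum was mostly Csf3r, whose mean level was 6.37 in sham and 5.93, 6.03 and 5.97 at 3, 12 and 72 h. Csf3r was lower than in sham at each time and was not called. Ly6g, named after its values were seen, was 3.61 and 3.65 above sham at 3 h and 12 h and at -0.08 at 72 h (adjusted p = 0.931, limma). Monocyte and macrophage markers, read because macrophages can make Mmp9, were called higher in 1, 4 and 6 of 7, with Ccr2 (3.38), Adgre1 (2.66), Cd68 (1.98) and Mrc1 (1.71) leading at 72 h. Their summed level was 45.0 to 84.5 in sham, 145 to 183 at 3 h, 194 to 209 at 12 h and 119 to 129 at 72 h. At 12 h most of that sum was Ly6c2, whose mean level was 4.85 in sham and 7.14, 7.41 and 4.89 at 3, 12 and 72 h. From 12 h to 72 h Adgre1 rose from 1.80 to 3.25 and Mrc1 from 0.60 to 2.64. In that comparison limma called 4 of the 7 higher and 1, Ly6c2, lower, against 4.33% and 3.19% of all genes. The part of these cells in the Mmp9 result was not tested.

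For the lists that follow, 3.26%, 4.1% and 4.55% of all genes were called higher at the 3 times and 4.11%, 4.96% and 4.3% lower. In lists this short a count of 0 lies near these shares. Mast cell markers, read because mast cells can make Ctsg, were called higher in 1, 0 and 3 of 8. At 3 h this was Cma1 (2.44), when Ctsg was well above background on 0 arrays, so that its order among those arrays cannot be read. At 72 h these were Cma1 (3.17, limma adjusted p = 0.0101), Cpa3 (1.71) and Tpsb2 (1.45), which are mast cell proteases. The same 3 of the 8 mast cell markers were called higher at 72 h against 12 h (2.42, 1.79 and 1.37), against 4.33% of all genes. Their summed level was 4.33 to 5.15 in sham, 3.83 to 8.01 at 3 h, 4.06 to 4.58 at 12 h and 5.42 to 8.33 at 72 h. All 8 were well above background on every array, and their part in the Ctsg result was not tested. Eosinophil markers were called in 0 of 5 at each time by limma, with 0, 1 and 3 at an unadjusted p under 0.05, and Epx was well above background on 0 arrays. Red cell and platelet markers were called higher in 5, 2 and 2 of 6. At 3 h these were Ppbp, at least 9.29-fold, Hbb-b1 (3.72), Alas2 (3.46), Hba-a1 (3.28) and Pf4 (1.91). Their summed level was 11.9 to 20.7 in sham, 82.9 to 289 at 3 h, 46.5 to 61.4 at 12 h and 29.6 to 52.4 at 72 h. The highest of these sums (289) was on 3 h replicate 1, where Hba-a1 stood at 8.04. The part of blood in the results of the secondary genes was not tested. Smooth muscle markers were called lower in 0, 4 and 3 of 4, mesothelial markers lower in 2, 2 and 0 of 4 with Wt1 higher at 72 h (4.40), and fibroblast markers lower in 0, 2 and 0 of 4, with 3 of the 4 higher at 72 h, among them Col1a1 (3.0) and Lum (1.47). T and B cell markers had 0 calls of 3 each by limma and 0 at an unadjusted p under 0.05. On 3 h replicate 1 the summed level of the B cell markers was 0.50, against 4.49 and 11.6 on the other 3 h arrays. That of the mesothelial markers was 0.14, against 1.77 and 2.54. This array was also the lowest 3 h array for Ltf, Camp, Ngp, Lcn2 and Mmp8. The part of its cell make-up in the 3 h values was not tested.

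The pattern over the 12 arrays was compared with that of the other genes by Pearson's r, as a description in which all points share the arrays and groups. Mpo was nearest to Chl1 (0.983), Bmper (0.979) and Cdh5 (0.973), the last an endothelial cadherin. Elane was nearest to AK049762, 3110039I08Rik and AK030286 (0.949 to 0.916). Prtn3 was nearest to 1110046J04Rik, Fgf10 and Col15a1 (0.922 to 0.916), and Ctsg to Plac9a, Clps and Tmem219 (0.888 to 0.869). Among the secondary genes, Ltf was nearest to a transcript named by position alone (0.972), Chil3 (0.966) and Olfm4 (0.961), both of which are also granule genes. Lcn2 was nearest to the opposite strand of that locus (0.997), Nod2 (0.995) and Mrgpra5 (0.994). Camp was nearest to Tmem123, Sh2b2 and Il17ra (0.981 to 0.954), Ngp to Vasp, ENSMUST00000120788 and Bcl2l1 (0.981 to 0.976), and Mmp8 to Rnd1, Fbxl5 and Rap1b (0.985 to 0.979). Mmp9 was nearest to Tyrobp (0.990), an adaptor of myeloid receptors, Adssl1 (0.989) and Apobr (0.986). Among the 10 genes themselves, Lcn2 and Mmp8 were closest (0.936), followed by Lcn2 and Ltf (0.898), and Ngp and Prtn3 lay farthest apart (-0.558).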

How the data were processed

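RNA of the mouse cecum was measured on 12 Agilent arrays of 1 colour, with 3 arrays in each group, and samples were grouped from the labels. The authors deposited the output of Agilent Feature Extraction 11.5.1.1, which gives each spot's intensity after background correction and before any normalization between arrays. A table of log2 values that the authors scaled in GeneSpring was deposited too and used here as an alternative. Probe coordinates were given on mm9, and exons were not assigned. Of 62976 spots on an array 3671 were controls. Of the other 59305, 62.0% to 66.8% were well above background and 0 were saturated. Feature Extraction flagged 53 to 152 of them as outliers, which were left out. Precision is limited by the number of arrays.

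The spots of a probe were averaged, and each array's 75th percentile over non-control probes (179.5 to 260.8) was subtracted on the log2 scale. Group means were fitted across the 12 arrays by limma 3.58.1 under R 4.3.3, and p-values of all 56605 probes were adjusted together by the Benjamini-Hochberg method. A gene was read by its brightest probe on average. This fit was tested on simulated data. Tables and figures were made with Python 3.11.15, pandas 2.3.3 and matplotlib 3.10.9. Promoter windows are those of RefSeq on GRCm38.p6.

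The 10 genes and the gene lists were chosen with earlier results of these data known. Named were all 10 genes with every probe. From each list discussed, up to 4 called members with the widest difference at the time discussed were named, with members called against their list and defining markers never above background. The 3 genes nearest to each granule gene by Pearson's r, Xist and Y-linked genes were named too. The text departs from this rule where it names Ly6g, Csf3r, Itgam, Gfi1, Myb, Cebpa, Runx1, Lyz2, Cybb and Pf4.

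Alternatives were quantile normalization, the percentile over probes above background on all arrays, normexp with an offset of 50, the authors' table, outlier spots kept, dim probes filtered or set to a floor, a block for slide or for replicate number, eBayes run with its trend and robust options, only the 2 groups compared, the methods' t-test, Dunnett's test, a gene's probes averaged, and each array left out in turn. Fits within each slide were added after seeing the data. Within groups the arrays correlated at 0.985 to 0.992 across probes.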

Additional observations from a re-analysis of the deposited data

Results flagged for a closer look

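Some differences between 2 times after cauterization passed the limma test, so that the effect against sham differed between those times. They were found for Mpo, Prtn3, Ctsg, Ltf, Ngp, Lcn2 and Mmp9. Over all genes 1.89% were called higher and 1.56% lower at 12 h against 3 h. These shares were 4.33% and 3.19% at 72 h against 12 h, and 6.19% and 5.51% at 72 h against 3 h. Between 3 h and 12 h the log2 difference was 2.92 for Ltf, 2.91 for Lcn2 and 2.49 for Mmp9. Between 12 h and 72 h it was 2.16 for Mpo, 1.76 for Prtn3 and 1.62 for Ctsg, against -2.83 for Ltf, -5.12 for Ngp and -2.34 for Lcn2. Between 3 h and 72 h it was 2.32 for Mpo, 1.63 for Prtn3, 1.78 for Ctsg and 2.77 for Mmp9, against -2.65 for Ngp. In Ngp the 3 h and 72 h arrays overlapped, although that difference was called. Between 3 h and 72 h the Ngp difference missed the threshold without 8 of the 12 arrays (adjusted p up to 0.125, limma) and that of Prtn3 without 3 (up to 0.0904). With the slide as a block none of the differences between 12 h and 72 h passed, and between the other times Mmp9 alone did.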

How the results depend on the processing

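Across 28 alternatives, of which 2 were added after seeing the data, 1570 values of single genes were recomputed. Of these 1393 kept their direction and side of the threshold, 116 lost a call, 29 gained one and 32 turned, each of the latter a difference that was not called. The number of granule genes called at 3 h against sham was 3, with 5 under the floor on dim probes. The methods' t-test, a paired test with little power at 3 arrays in a group, gave 0 calls in all 6 comparisons. It had 5, 6 and 7 genes at an unadjusted p under 0.05 for 3, 12 and 72 h against sham. The counts were 4, 2 and 5 for 12 h against 3 h, 72 h against 12 h and 72 h against 3 h. A block for slide left 2 calls at 72 h against sham, 1 at 12 h against 3 h, 0 at 72 h against 12 h (5 at an unadjusted p under 0.05 by limma) and 1 at 72 h against 3 h. Within the second slide 0 were called at 72 h against 12 h (3 unadjusted). The floor gave 5 at 12 h against 3 h. Normexp gave 3 at 72 h against 12 h and 2 at 72 h against 3 h, and only the 2 groups compared gave 2 and 3. Leaving out each array gave 2 to 4 calls at 3 h, 6 to 6 at 12 h and 5 to 8 at 72 h against sham, 1 to 4 at 12 h against 3 h, 2 to 7 at 72 h against 12 h and 3 to 6 at 72 h against 3 h. The count of 8 came without 72 h replicate 3, and the count of 1 without 3 h replicate 1, 12 h replicate 1 or 12 h replicate 3.

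Replicate numbers did not pair the arrays, since the deviations of same-numbered arrays correlated at -0.16 to 0.09 in 18 pairs. In the fit with the replicate block, 3, 6, 6, 3, 6 and 5 genes were called in the 6 comparisons, adding Prtn3 at 72 h against sham, and no other call changed.

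Values that turned, none of them called, were the following. At 3 h against sham Elane was 0.0552 under quantile normalization, Prtn3 0.0259 and Ctsg 0.0203 under normexp, and Ctsg 0.0364 under the floor. At 72 h against sham Ngp was -0.0422 under normexp. At 12 h against 3 h normexp gave -0.059 for Mpo and -0.158 for Ctsg, the floor -0.246 for Ctsg and the slide block 0.171 for Prtn3 and 0.217 for Mmp8, as within slide 1. Mmp8 was 0.0568 under quantile normalization and 0.0412 with the percentile over probes above background. At 72 h against 12 h Elane was -0.0057 under normexp and -0.163 with the slide block and within slide 2. At 72 h against 3 h Ltf was -0.0027 under normexp. Leaving out each array gave -0.0989 to 0.0071 for Elane at 3 h against sham, -0.491 to 0.171 for Prtn3, -0.132 to 0.513 for Ctsg and -0.341 to 0.270 for Mmp8 at 12 h against 3 h, -0.0298 to 0.150 for Elane at 72 h against 12 h, and -0.961 to 0.620 for Ltf and -0.202 to 1.1 for Lcn2 at 72 h against 3 h. The cause was not tested. Prtn3, Ctsg, Ltf and Ngp lay near background in some groups, which limits their differences.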
